A study of Mus musculus with 6 samples.

Results

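The insulin-like growth factor (IGF) genes described here are 10: the ligand gene Igf1, the receptor genes Igf1r and Insr, and the binding protein genes Igfbp1 to Igfbp7. They were taken by symbol from the array's annotation, using probe sets with a single gene symbol and, for each gene, the brightest probe set by its mean over 6 arrays. All 10 were found and passed the filter on low values, among 18710 genes tested. Total RNA had been profiled on 3 arrays of Tlx1 homozygous and 3 arrays of Tlx1 heterozygous spleens, dissected from E13.5 mouse embryos. Tlx1 encodes a homeobox factor that the spleen needs to form, and the series title frames the study around TLX1 and retinoic acid signalling. The labels give the zygosity but not the allele, the strain or whether spleens were pooled, and all animals carried at least 1 altered copy if homozygous is read as homozygous for the altered allele. Nothing in the labels says that replicates were separate embryos, so each p-value rests on the scatter among these 6 samples alone, and that scatter may be technical.

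IGF1 is a secreted growth factor that binds the IGF1 receptor, a tyrosine kinase at the cell surface that signals through PI3K and AKT and through the MAPK cascade. The insulin receptor is its close relative and can pair with it in hybrid receptors. IGFBP1 to IGFBP6 bind IGFs with high affinity and hold them away from the receptors or carry them through fluid and matrix until proteases release them. IGFBP7 is a relative with low affinity for IGFs. In the embryo IGF signalling is known as a main driver of organ growth, with much of the ligand made by mesenchyme.

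Of the 10 genes 2 rose in homozygous spleens, Igf1 and Igfbp5, and none fell. Igf1 was 1.32-fold and Igfbp5 1.21-fold higher by group means. For the receptors Igf1r and Insr and for 6 of the 7 binding protein genes the difference did not pass the test. The test was limma across all 18710 genes, with a call at an adjusted p below 0.05. Calls made up 17.0% of all genes tested, 10.4% as rises and 6.56% as falls, so 2 of 10 is a share near the background. Log2 fold changes, homozygous minus heterozygous, were above 0 for 9 of the 10 genes, against 53.6% of all genes, and their median was 0.11, against 0.02 for all genes. In 3 of the 10 the groups did not overlap (Igf1, Igfbp5 and Insr), against 38.3% of all genes.

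**Figure D1:**
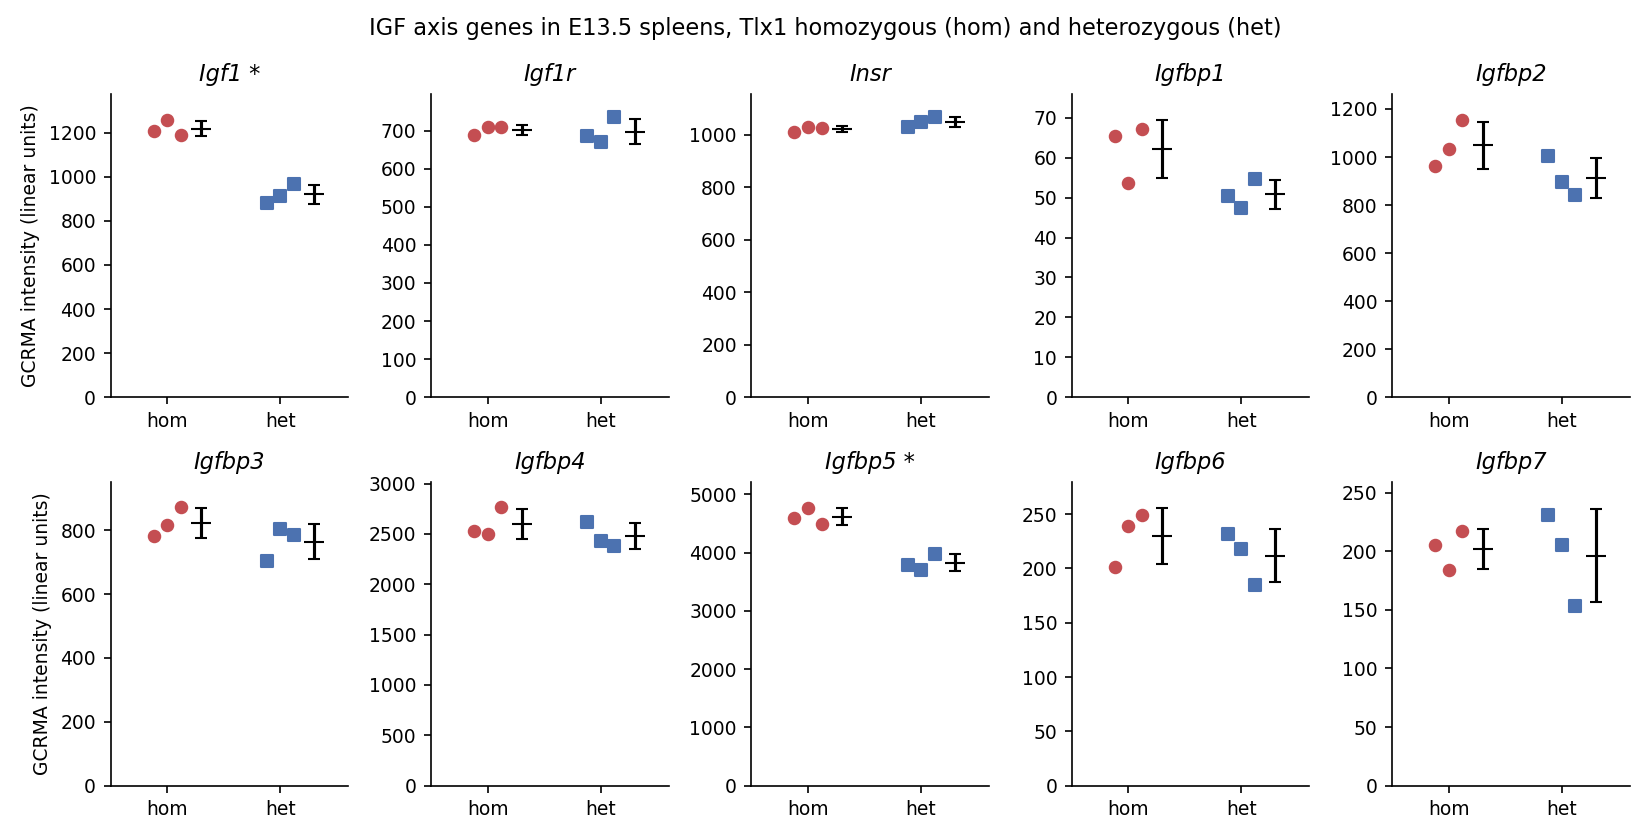
Deposited intensity of each gene on each array (vertical axis from 0, linear GCRMA units), with homozygous arrays as red circles and heterozygous arrays as blue squares. Black bars give the mean and SD over 3 arrays, and an asterisk marks an adjusted p below 0.05. Igf1 and Igfbp5 are separated upward in homozygous spleens, while Igf1r and Insr lie at nearly the same height in both groups.

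Tlx1, the gene altered, was low where the labels say homozygous. It had intensities of 171, 209 and 199.9 in homozygous spleens, against 825, 706 and 719 in heterozygous spleens, a log2 fold change of −1.95 ± 0.09 (SE, adjusted p = 1.3e-05). Array medians lay between 106 and 110.5, and the correlation of log2 values across genes was 0.995 to 0.997 for arrays of 1 group and 0.989 to 0.993 for arrays of different groups. Of the 6 spleen mesenchyme markers tested, Tlx1 among them, 5 fell and none rose, with a summed intensity of 6441 to 7184 on homozygous arrays and 8702 to 8903 on heterozygous arrays. Of 12 endothelial markers 10 fell and 1 rose (sums of 5767 to 6143 and 8151 to 8562). Of 9 erythroid markers 6 fell (2317 to 2528 and 3600 to 4040.1). Among 8 pancreas markers 2 rose (2749 to 6039 and 1281 to 1807), among 9 epithelium markers 3 (4855 to 5373 and 3957 to 4517), and among 7 neural crest and neuron markers 4 (1238 to 1308 and 833 to 923). The epithelium list shares Barx1 (means of 1487 and 1232) with the spleen mesenchyme list. It shares Krt8 (590 and 508) and Krt19 (1506 and 1253) with the mesothelium list. None of these was called, yet Barx1 and Krt19 weigh heavily in the epithelium sums. The separation of those sums is therefore not one of epithelial genes alone. Much of the spread of the pancreas sums on homozygous arrays lay in Gcg, which was not called (adjusted p = 0.0986). Gcg had 3751, 761 and 2728 on homozygous arrays, against 98, 659 and 1032 on heterozygous arrays. Cpa1, a pancreas marker that rose (1.77 ± 0.30, adjusted p = 0.00793), had 1783, 1610 and 1600 against 861, 307 and 436, without overlap. The other was the dimmer Cela1 (0.31 ± 0.09, adjusted p = 0.045). Among 9 liver and 9 macrophage markers none passed (liver sums of 1162 to 2348 and 1377 to 2066), and of 8 mesothelium markers 1 rose and 1 fell. Of 7 smooth muscle markers 1 rose, Des, which encodes the muscle filament protein desmin (0.64 ± 0.06, adjusted p = 0.000757), and the sums were 2023 to 2242 and 1616 to 1961. No marker tested was at 0, but the filter on low values had removed the dimmest probe sets beforehand. That result therefore does not show which cell types were present. The part of these shifts in the IGF results was not tested, and in such bulk samples fewer cells of a type and less RNA per cell cannot be told apart. The mean log2 level of 3 Y-linked genes was 8.07 to 8.22 on the homozygous arrays and 8.76, 8.08 and 8.99 on heterozygous arrays 1, 2 and 3, while the labels give no sex.

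Igf1, the growth factor itself, showed the largest difference of the 10 genes. Its intensity was 1209.7, 1257 and 1188 on the homozygous arrays, against 882, 911 and 969 on the heterozygous arrays. Every homozygous array was brighter than every heterozygous array, and the gap between the groups was wider than the range within either. The means were 1218 ± 35.2 and 920.4 ± 44.2 (SD, n = 3 each), and the log2 fold change was 0.40 ± 0.06 (SE), with a 95% interval of 0.26 to 0.55 and an adjusted p of 0.00566. The size of this change exceeded that of 93% of all genes tested. Igf1 passed in all 19 refits under other settings, which included leaving out each array in turn and a Y-linked covariate, at 0.37 to 0.45 (adjusted p of 0.000334 to 0.0299). A probe set for Igf1os, a noncoding transcript annotated from the opposite strand over Igf1, was dim at 18.2, 15.4 and 22.3 on homozygous arrays and 17.8, 18.4 and 20.5 on heterozygous arrays, where the groups overlapped.

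The gene of the main receptor for this ligand did not pass the test. Igf1r was at 688, 709.8 and 709 in homozygous spleens, against 686, 671 and 735 in heterozygous spleens. The homozygous values lay inside the range of the heterozygous ones. The log2 fold change was 0.01 ± 0.06 (adjusted p = 0.921), and its 95% interval of −0.13 to 0.15 limits a difference in either direction to a small one. Without heterozygous replicate 1 or 2 the sign turned (−0.00045 and −0.016).

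Insr, the insulin receptor gene, was measured by a pair of probe sets. The brighter had 1010.1, 1028 and 1024 on homozygous arrays, against 1029, 1047 and 1068 on heterozygous arrays. All 3 homozygous values were below the heterozygous ones, though by a margin of about 1 unit between the nearest arrays, and the log2 fold change of −0.04 ± 0.06 did not pass (adjusted p = 0.677, interval −0.17 to 0.09). The dimmer probe set had 444, 477 and 435 on homozygous arrays and 451, 430.2 and 470.2 on heterozygous arrays, with overlap, and a log2 fold change of 0.01 ± 0.07 among all named probe sets (adjusted p = 0.964). Neither probe set was called, and their signs differ.

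Within each array the log2 difference between Igf1 and Igf1r was 0.39 larger in homozygous than in heterozygous spleens, and that between Igf1 and Insr was 0.44 larger. For both, the values of the 3 homozygous arrays lay above those of all 3 heterozygous arrays. A two-sided exact permutation test gave p = 0.1 for each, the smallest p that this test allows with 3 arrays against 3 (adjusted p = 0.2 over 4 such pairs, chosen with values known). These values do not compare the amount of one transcript with that of another.

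**Figure D2:**
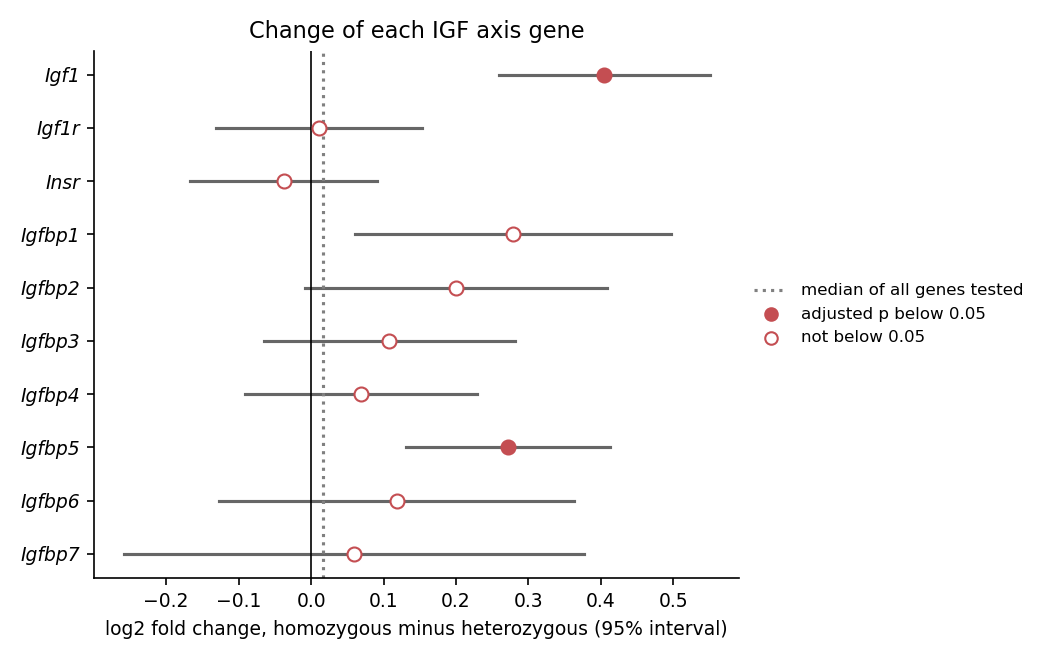
Log2 fold change of each gene, homozygous minus heterozygous (horizontal axis), with its 95% interval as a line. Filled points have an adjusted p below 0.05, and the dotted line is the median of all genes tested at 0.02. The interval of Igf1 (0.26 to 0.55) lies wholly above that of Igf1r (−0.13 to 0.15).

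The start regions of these ligand and receptor genes are shown with that of Igfbp5, since Igf1 and Igfbp5 are the 2 genes that rose and Igf1r is the main receptor gene, which did not pass. Each is the 250 bases before an annotated start, from RefSeq promoter windows of assembly GRCm38.p6, in which 9 of the 10 genes had an entry. They lie at chr10:87860861-87861110 on the plus strand for Igf1, at chr7:67952007-67952256 on the plus strand for Igf1r and at chr1:72874866-72875115 on the minus strand for Igfbp5. The sequences read 5′ to 3′ along the gene, and capitals mark the letters AGGTCA or, on the opposite strand, TGACCT, the half-site that retinoic acid receptors and other nuclear receptors bind.
Igf1: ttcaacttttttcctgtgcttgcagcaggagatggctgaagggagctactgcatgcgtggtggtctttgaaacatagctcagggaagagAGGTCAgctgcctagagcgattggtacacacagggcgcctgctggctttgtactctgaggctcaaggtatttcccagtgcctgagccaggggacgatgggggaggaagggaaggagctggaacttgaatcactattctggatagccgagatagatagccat
Igf1r: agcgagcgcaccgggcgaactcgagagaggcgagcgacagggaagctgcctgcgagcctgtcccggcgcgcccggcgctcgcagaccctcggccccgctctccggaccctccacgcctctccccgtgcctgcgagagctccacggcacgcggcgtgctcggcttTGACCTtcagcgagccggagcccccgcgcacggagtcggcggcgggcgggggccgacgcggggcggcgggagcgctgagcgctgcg
Igfbp5: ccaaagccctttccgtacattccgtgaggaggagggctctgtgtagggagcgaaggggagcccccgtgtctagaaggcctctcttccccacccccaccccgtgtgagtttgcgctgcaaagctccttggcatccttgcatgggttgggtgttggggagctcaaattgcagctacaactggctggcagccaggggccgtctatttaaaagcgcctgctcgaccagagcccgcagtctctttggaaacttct
The half-site letters occurred once before the Igf1 start, at position −161, and once before the Igf1r start, at position −86 on the opposite strand. They did not occur in the Igfbp5 window or in those of the other 6 genes. Among all 32851 RefSeq windows of this length 14.0% hold them on either strand. The homeobox core TAATTA, present in 4.84% of all windows, was in none of the windows of the 9 genes. The TATA box letters TATAAA, present in 12.4%, occurred at −28 before Igfbp4 and, on the opposite strand, at −148 before Igfbp6. The window of Igf1r held 42 CpG sites, against 5 in that of Igf1, 10 in that of Igfbp5 and a median of 6 over all windows. A match of letters is a description of these windows only, since binding was not measured on these arrays, and the half-site letters stood before Igf1, which rose, and before Igf1r, which did not pass.

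Igfbp5, whose protein binds IGFs and the extracellular matrix, was the other gene that rose. It had intensities of 4599, 4774 and 4489 in homozygous spleens, against 3789.5, 3711 and 3986 in heterozygous spleens. The groups did not overlap. The means were 4621 ± 143 and 3829 ± 142 (SD, n = 3 each), and the log2 fold change was 0.27 ± 0.06 (interval 0.13 to 0.41, adjusted p = 0.0221). The estimate stayed between 0.25 and 0.32 in the 19 refits, but the call was lost without heterozygous replicate 1 (0.26, adjusted p = 0.0699), without heterozygous replicate 2 (0.25, adjusted p = 0.0856), without homozygous replicate 1 (0.27, adjusted p = 0.0692) and with the Y-linked covariate (0.32, adjusted p = 0.0600).

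Igfbp2, which encodes a binding protein of many embryonic tissues, is the next protein-coding gene to Igfbp5 on chromosome 1. Its intensity was 961, 1032 and 1155 in homozygous spleens, against 1003.5, 894 and 841 in heterozygous spleens. Heterozygous array 1 lay above homozygous array 1, so the groups overlapped, and the log2 fold change of 0.20 ± 0.09 did not pass (interval −0.01 to 0.41, adjusted p = 0.162). It was 0.13 without homozygous replicate 3. On the same arrays the log2 difference between Igfbp5 and Igfbp2 was 0.07 larger in homozygous spleens, with overlapping values (two-sided exact permutation p = 0.6). A difference in response between these neighbours was therefore not shown.

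Igfbp1 and Igfbp3 form the other neighbouring pair, on chromosome 11. IGFBP1 is made chiefly by the liver and falls under insulin, while IGFBP3 is the main carrier of IGFs in blood. Igfbp1 was dim, at 65.4, 53.8 and 67.1 in homozygous spleens, against 50.5, 47.5 and 54.6 in heterozygous spleens. Homozygous array 2 lay within the heterozygous range, and the other 2 homozygous arrays lay above it. The log2 fold change of 0.28 ± 0.10 did not pass (adjusted p = 0.0779), although its own 95% interval of 0.06 to 0.50, which is not adjusted for the number of genes, lay above 0. Without homozygous replicate 2 it was 0.38 and passed (adjusted p = 0.0192), as it did with array weights (0.32, adjusted p = 0.0309). Calls over all genes were also more in these refits, at 2319 higher and 1244 lower and at 2825 and 1744, against 1951 and 1227. After cyclic loess the change of Igfbp1 shrank to 0.16 (adjusted p = 0.216), after quantile normalization it was 0.23 (adjusted p = 0.116), and without homozygous replicate 3 it was 0.22 (adjusted p = 0.199). Homozygous array 2 was also the lowest of the 3 in summed liver markers, at 1162 against 2348 and 2339, and in summed pancreas markers, at 2749 against 6039 and 4745. On heterozygous arrays 1, 2 and 3 the liver sums were 1914, 2066 and 1377, in the reverse order of Igfbp1. The pancreas sums there were 1332, 1281 and 1807, in the same order as Igfbp1. Much of the homozygous pancreas spread lay in Gcg, as given above. Of the liver markers, Ttr had 1134, 250 and 712 on homozygous arrays 1, 2 and 3, in the same order as Gcg, and was not called (adjusted p = 0.113). Alb had 323, 231 and 583 on those arrays. The liver and pancreas sums were thus not shown to be separate signals. What these markers contribute to the Igfbp1 signal was not tested.

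Igfbp3 had 781, 817 and 872 in homozygous spleens, against 703, 805 and 785 in heterozygous spleens. Homozygous array 1 lay below a pair of the heterozygous arrays. The log2 fold change was 0.11 ± 0.08 (interval −0.06 to 0.28, adjusted p = 0.351), and it was 0.05 under the Y-linked covariate, 0.05 without heterozygous replicate 1 and 0.07 without homozygous replicate 3. For Igfbp3 against Igfbp1 the log2 difference within arrays was lower by 0.17 in homozygous spleens (two-sided exact permutation p = 0.3), with overlapping groups.

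The remaining binding protein genes showed overlapping groups. Igfbp4, whose product is cut by the protease PAPP-A, was at 2524, 2503 and 2771 in homozygous spleens, against 2623, 2425 and 2385 in heterozygous spleens (log2 fold change 0.07 ± 0.07, interval −0.09 to 0.23, adjusted p = 0.526). Igfbp6, whose product prefers IGF2 over IGF1, was at 201, 239 and 249 against 232, 218 and 185 (0.12 ± 0.11, adjusted p = 0.475). Its interval, −0.13 to 0.36, includes 0 and also a rise as large as that of Igfbp5, and the estimate ranged from 0.02 without heterozygous replicate 3 to 0.21 without homozygous replicate 1. Without homozygous replicate 3 Igfbp6 was at 0.06, without heterozygous replicate 1 at 0.19, and with the Y-linked covariate at 0.02. Igfbp4 was at 0.02 without homozygous replicate 3, 0.04 without heterozygous replicate 3 and 0.11 without heterozygous replicate 1. Igfbp7, which is known in vessel walls, was at 205, 184 and 217 against 231, 205 and 153 (0.06 ± 0.14, interval −0.26 to 0.38, adjusted p = 0.796), where the low value of heterozygous array 3 set the sign. Without that array the log2 fold change of Igfbp7 was −0.11 (adjusted p = 0.487). Its estimate was 0.06 on arrays where 10 of 12 endothelial markers fell, and a difference from those markers was not tested.

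**Figure D3:**
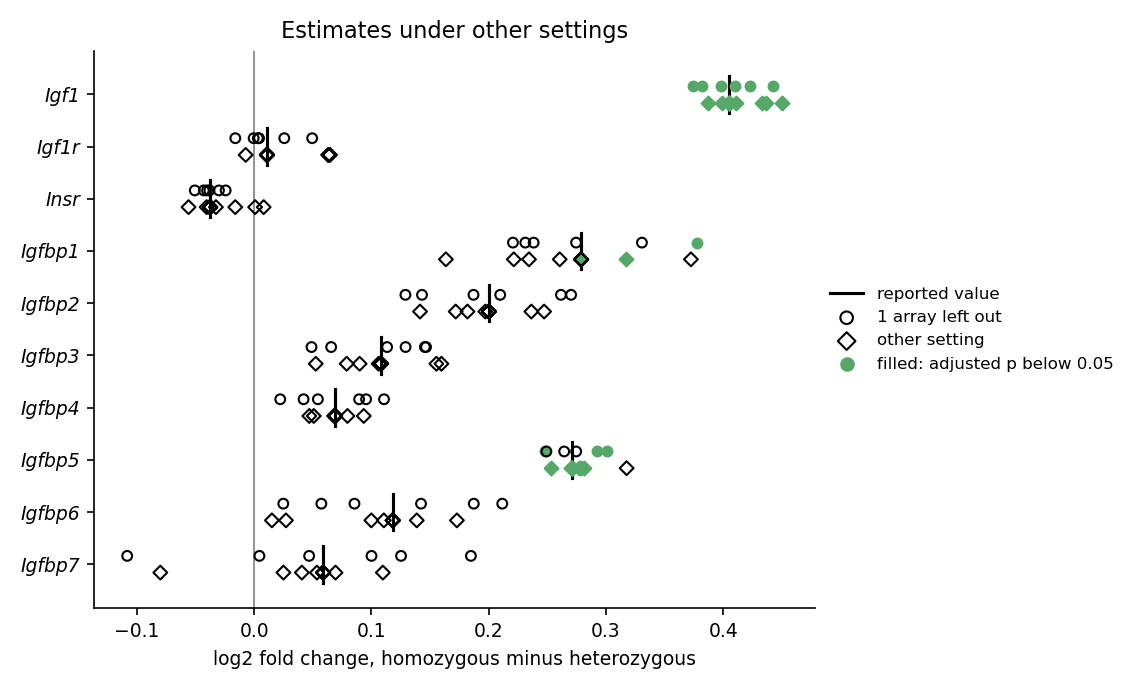
Log2 fold change of each gene under 19 other settings, 18 for Igfbp1 (horizontal axis, homozygous minus heterozygous). Circles leave out 1 array, diamonds change another choice, filled symbols have an adjusted p below 0.05, and the black bar is the reported value. Igf1 stays between 0.37 and 0.45 with every symbol filled, while Igfbp7 spreads from −0.11 to 0.18.

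The genes whose 6 values ran most closely with Igf1, the member with the smallest p, were Runx1t1, Oas1a and Tgfb2. Their root mean square differences from it, after each gene was centred on its own mean of log2 values over the 6 arrays, were 0.0231, 0.0254 and 0.0264. Runx1t1 encodes a transcriptional corepressor, Oas1a an interferon-induced enzyme and Tgfb2 a TGF-beta ligand. Their log2 fold changes were 0.38 ± 0.07, 0.43 ± 0.06 and 0.41 ± 0.07, beside 0.40 for Igf1. These are the closest 3 of 18710 profiles over only 6 arrays, so fold changes near that of Igf1 follow from how they were picked.

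Most genes of the wider pathway did not pass. Across 8 lists of other IGF pathway genes 95 genes were tested, of which 12 rose, 10 fell and 73 did not pass, so that 23.2% were called beside 17.0% of all genes. Their median log2 fold change was 0.01, beside 0.02 for all genes. The calls among other ligands and receptors (3 of 4 genes) and among proteases and partners (5 of 12) were rises. Those among adaptors (1 of 17) and among PI3K, AKT and mTOR genes (5 of 22) were falls. That contrast between lists was not tested.

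**Figure D4:**
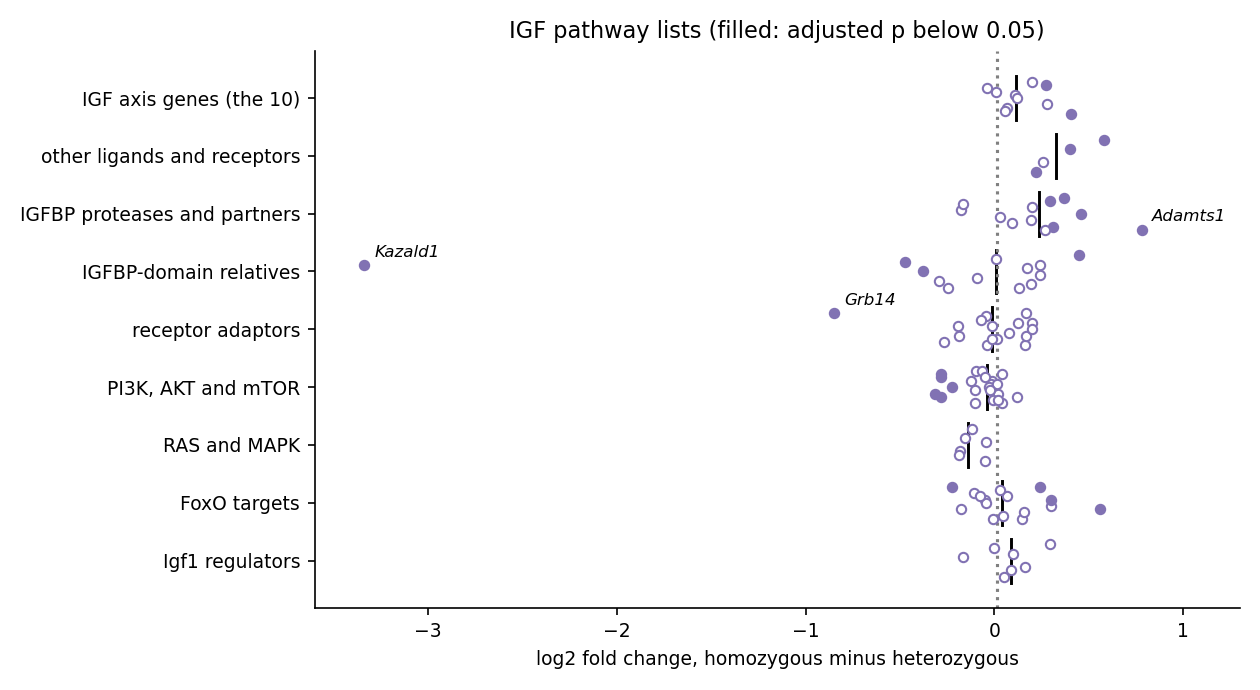
Log2 fold change of each tested gene by list (horizontal axis, homozygous minus heterozygous; vertical offsets only separate points). Filled points have an adjusted p below 0.05, black bars are list medians and the dotted line is the median of all genes. Kazald1 stands far to the left at −3.34, and no filled point lies below 0 among other ligands and receptors or among IGFBP proteases and partners.

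Among the other ligands and receptors 3 of 4 tested genes rose and none fell (median 0.33). Igf2r, whose product takes IGF2 up for degradation, had 2761, 2933 and 2601 in homozygous spleens, against 2044, 2038 and 2207.5 in heterozygous spleens, without overlap. Its log2 fold change was 0.40 ± 0.07 (adjusted p = 0.00872), and it passed in all 6 refits without 1 array (0.36 to 0.44). Insrr, which encodes the insulin receptor-related receptor, rose by 0.58 ± 0.09 (adjusted p = 0.00523), with dim signals that averaged 118 ± 8.02 in homozygous and 78.9 ± 8.39 in heterozygous spleens (SD, n = 3 each). Igf2, the main embryonic IGF ligand, had 9685, 9593 and 9673 in homozygous spleens, against 8118, 8364 and 8362 in heterozygous spleens. The groups of Igf2 did not overlap and the log2 fold change was 0.22 ± 0.06 (adjusted p = 0.0316). That call was lost in every refit without 1 array except the one without homozygous replicate 2 (0.21 to 0.23 over all 6), with the Y-linked covariate (adjusted p = 0.148) and with arrays centred on their median (adjusted p = 0.0513). Ins2, an insulin gene, was at 61.2 ± 13.0 in homozygous and 50.3 ± 4.23 in heterozygous spleens (SD, n = 3 each) and did not pass.

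Of 12 genes for IGFBP proteases and partners 5 rose and none fell (median 0.24). Adamts1, a secreted metalloprotease reported to cut IGFBP2, had 1309, 1315 and 1251 in homozygous spleens, against 834, 685 and 741 in heterozygous spleens. With no overlap between groups, its log2 fold change was 0.78 ± 0.08 (adjusted p = 0.000831), and it passed in all 6 refits without 1 array (0.72 to 0.86). Prss23, a secreted serine protease, rose by 0.31 ± 0.06 (adjusted p = 0.0102) and also passed in all 6. Pappa2, a metalloprotease that cuts IGFBP5 and IGFBP3, rose by 0.46 ± 0.11 (adjusted p = 0.0224), a call lost without homozygous replicate 3 or heterozygous replicate 2 or 3 (0.39 to 0.56 over all 6) and with the Y-linked covariate (adjusted p = 0.117). Igfals, the acid-labile partner of IGFBP3 and IGFBP5, was dim and rose by 0.37 ± 0.11 (adjusted p = 0.0444). The call of Igfals held only without homozygous replicate 2 or heterozygous replicate 2 (0.27 to 0.46 over all 6), and was lost after quantile normalization (adjusted p = 0.0678), after cyclic loess (adjusted p = 0.13) and with the covariate (adjusted p = 0.24). The fifth rise, named after its values were seen, was that of Pappa, the protease of IGFBP4, at 0.29 ± 0.08 (adjusted p = 0.0338), which passed in none of the 6 refits without 1 array (0.23 to 0.33), nor after cyclic loess or with the covariate (adjusted p = 0.0633).

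Of 13 genes for relatives that share the IGFBP amino-terminal domain 3 fell and 1 rose (median 0.01). Kazald1, a secreted relative, is the protein-coding neighbour of Tlx1 on chromosome 19 and had 127, 114 and 135 in homozygous spleens, against 1408, 1251 and 1181 in heterozygous spleens. With means 10.2-fold apart it was the largest fall on the lists, at −3.34 ± 0.09 (adjusted p = 2.75e-07). Whether that fall follows from the neighbouring altered allele was not tested. Htra3, a secreted serine protease, fell by 0.47 on the log2 scale (SE 0.07, adjusted p = 0.00432), and Ccn4, a matricellular protein gene of the CCN family, rose by 0.45 ± 0.06 (adjusted p = 0.0029); both passed in all 6 refits without 1 array. Esm1, a proteoglycan gene of endothelial cells, had −0.38 ± 0.10 (adjusted p = 0.0331), a call that held only without heterozygous replicate 1 among those refits (−0.45 to −0.29).

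Of 17 receptor adaptor genes 1 passed, Grb14, whose product inhibits the insulin receptor kinase. Grb14 had 124, 127 and 135 in homozygous spleens, against 214, 256 and 229 in heterozygous spleens, without overlap, and a log2 fold change of −0.85 ± 0.08 (adjusted p = 0.000516; −0.91 to −0.78 in the 6 refits without 1 array, called in each). The receptor substrate genes Irs1 (0.01 ± 0.08) and Irs2 (−0.04 ± 0.08) did not pass, with overlapping groups; they were named after their values were seen, as the main docking proteins of both receptors.

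Of 22 genes of PI3K, AKT and mTOR signalling 5 fell and none rose (median −0.04). These were the PI3K catalytic subunit gene Pik3cb (−0.31 ± 0.08, adjusted p = 0.0288), the regulatory subunit gene Pik3r3 (−0.28 ± 0.08, adjusted p = 0.038), the lipid phosphatase gene Inpp5d (−0.28 ± 0.07, adjusted p = 0.0279), which is known from blood cells, and the transcription factor gene Foxo4 (−0.28 ± 0.07, adjusted p = 0.0357). The fifth, named after its values were seen, was Rictor of mTOR complex 2 (−0.23 ± 0.07, adjusted p = 0.0491). Each of the 5 calls was lost in 4 or 5 of the 6 refits without 1 array. Those of Pik3r3, Inpp5d and Rictor held, among the refits without 1 array, only in that without homozygous replicate 2 (ranges −0.35 to −0.22, −0.32 to −0.24 and −0.27 to −0.19). That of Pik3cb was lost without homozygous replicate 1 or 3 or heterozygous replicate 1 or 3 (−0.37 to −0.25), and that of Foxo4 without homozygous replicate 1 or 2 or heterozygous replicate 1 or 2 (−0.33 to −0.24). None of the 5 passed with the Y-linked covariate. Of the 5, Pik3cb, Pik3r3, Foxo4 and Rictor also did not pass after quantile normalization, and Pik3r3, Foxo4 and Rictor did not after cyclic loess. Erythroid and endothelial markers were lower in the same samples, as given above, and their part in these falls was not tested.

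None of 6 RAS and MAPK genes passed (median −0.14), with Map2k1 at −0.18 ± 0.07 (adjusted p = 0.0998) and Braf at −0.16 ± 0.07 (adjusted p = 0.161) nearest the threshold. Map2k1 encodes a MAPK kinase and passed with a variance trend (adjusted p = 0.0474). Among 7 regulators of Igf1 transcription none passed either (median 0.09). The nearest were Hnf4a, a factor of liver and gut epithelium, at 0.30 ± 0.09 (adjusted p = 0.0556), and Jak2, the kinase of the growth hormone receptor, at −0.17 ± 0.07 (adjusted p = 0.113). Hnf4a passed without homozygous replicate 2 (0.38, adjusted p = 0.025), the array with the lowest liver and pancreas marker sums among the homozygous ones, and under 4 other settings. It is itself on the liver list, and a link between Hnf4a and these sums was not tested.

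Of 16 targets of FoxO factors, which insulin and IGF signals keep out of the nucleus, 3 rose and 1 fell (median 0.04). Sesn3, a stress-induced regulator of mTOR complex 1, had 1523, 1652 and 1452 in homozygous spleens, against 1049.99, 985 and 1107 in heterozygous spleens. Those groups did not overlap, and its log2 fold change of 0.56 ± 0.07 (adjusted p = 0.00286) passed in all 6 refits without 1 array (0.51 to 0.60). Txnip, a thioredoxin-binding inhibitor of glucose uptake, rose by 0.30 ± 0.06 (adjusted p = 0.0124), but not past the threshold without homozygous replicate 1 (0.28, adjusted p = 0.0525) or with the covariate (0.31, adjusted p = 0.0622). The muscle ubiquitin ligase gene Trim63 was dim and at 0.24 ± 0.07 (adjusted p = 0.0393). Cdkn1b, an inhibitor of cyclin-dependent kinases, had −0.23 ± 0.06 (adjusted p = 0.0374). Calls of Trim63 (0.21 to 0.29) and Cdkn1b (−0.26 to −0.20) held, among refits without 1 array, only in that without homozygous replicate 2, and both were lost after quantile normalization, after cyclic loess and with the covariate. Cyclic loess brought Trim63 to 0.13 (adjusted p = 0.202), and its call was also lost with arrays centred on their median (0.22, adjusted p = 0.056) and with a variance trend (adjusted p = 0.0683).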

How the data were processed

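RNA of 6 embryonic spleen samples was measured on Affymetrix arrays, 3 per genotype. The authors deposited 1 intensity per probe set and array, and per the submitters' processing notes the tool was GCRMA; the values are linear, and its version and the genome build were not stated in the labels. GCRMA models background from probe sequence and normalizes arrays together, which can alter the differences of dim genes.

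The table holds 35512 probe sets, of which 21789 had a single gene symbol in GEO's platform annotation, 1621 several and 12102 none. Older symbols on the lists were updated through RefSeq synonyms. Probe sets reaching a log2 value of 4 (intensity 15) on 3 or more of the arrays were kept (20424), and the brightest per gene was used (18710 genes). Values were analysed as log2(intensity + 1), which pulls fold changes of dim genes toward 0, with limma 3.58.1 in R 4.3.3 (lmFit, eBayes, two-sided, Benjamini-Hochberg over all genes).

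The members, the lists and the rule for named genes were chosen with earlier results of these data known. The rule names the 10 genes, Tlx1, up to 4 called genes per pathway list by size of change (or the 2 of smallest p) and the 3 nearest profiles to the leading gene. Alternatives were other filters, pseudocounts, probe set choices, normalizations, variance models, weights, the replicate number as a block, a Y-linked covariate and refits without each array. The fit was tested on simulated data of 18710 genes, where 4% of changes of 0.25, 58% of 0.5 and 96% of 1 on the log2 scale were recovered. The number of arrays limits the precision. Same-numbered arrays did not deviate together (correlations of −0.01, 0.04 and −0.11), so numbers were not read as pairs.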

Additional observations from a re-analysis of the deposited data

How the results depend on the processing

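Of the 10 IGF genes 2 rose and none fell under most alternatives. The count of rises was 1 to 3 when 1 array was left out and 1 under a Y-linked covariate. It was 3 with array weights or with the replicate block, where Igfbp1 also passed (0.28, adjusted p = 0.0404). Array weights also gave more calls over all genes, at 2825 higher and 1744 lower, against 1951 and 1227 in the reported fit. With 3 arrays per group, the 95% intervals of 5 genes without a call (Igfbp1, Igfbp2, Igfbp3, Igfbp6 and Igfbp7) include a log2 fold change of 0.25. Changes of that size were seldom recovered in simulation, but only 50 genes were changed at each size there. With 3178 genes called in the data, that share does not give the recovery in the data. Igf1r turned sign without heterozygous replicates 1 and 2 (−0.00045 and −0.016, in a range of −0.016 to 0.0494 without 1 array) and with arrays centred on their median (−0.0073), Insr after quantile normalization (0.00079) and cyclic loess (0.0081), and Igfbp7 without heterozygous replicate 3 (−0.108, in a range of −0.108 to 0.185) and with the covariate (−0.0801). The cause was not tested. Igfbp1 was not tested where the log2 floor was 6, since fewer than 3 arrays reached that floor.

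Counts over all genes were 699 to 2319 higher and 499 to 1244 lower in the refits without 1 array, against 1951 and 1227. Both counts were highest without homozygous replicate 2. With the covariate they were 1140 higher and 507 lower. Other IGF pathway genes counted 7 to 15 higher and 3 to 8 lower without 1 array, and 7 higher and 4 lower with the covariate, against 12 and 10. Fewer arrays enter the first kind of refit. The covariate partly follows genotype, with 8.07 to 8.22 on homozygous arrays and 8.76, 8.08 and 8.99 on heterozygous arrays. It widened errors, as for Igfbp5, whose SE grew from 0.062 to 0.087 while its estimate rose. Dependence of the lost calls on sex was not tested. With the replicate block 2091 genes were higher and 1072 lower, and the number of an array did not mark its best correlate across groups in every case. Pathway calls lost under the block were those of Igf2 (adjusted p = 0.0676), Igfals (0.0584), Foxo4 (0.06), Trim63 (0.0692), Cdkn1b (0.0644), Pappa (0.0546) and Rictor (0.085), while those gained were Hnf4a (0.044), Pck1 (0.0402) and the fall of Ccn6 (0.0316). The call of Tlx1 held in every refit.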
